A study of Mus musculus with 168 samples.

Results

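The cerebellum of control mice was described here from the control arrays of a study of hypoxia, by setting the 3 cerebellum arrays taken at time point 0hr against the 18 control arrays of the other 6 regions: cerebral cortex, hippocampus, striatum, thalamus, midbrain, and pons and medulla. These 21 arrays were chosen by the label of the time point and the brain region alone, out of a series in which 7 regions were sampled at 8 time points with 3 arrays each. All mice were male C57BL/6 animals of 8 to 9 weeks. The control mice were sham animals that, by the methods of the study, breathed room air for 3 hours in the exposure chamber before 24 hours back in the home cage, so that they too had been handled. The later arrays come from mice killed after 1 or 3 hours of 8% oxygen (H1 and H3) or after 3 hours of it and a recovery of 1, 3, 6, 12 or 24 hours (groups R1 to R24), and they served as samples in which the control result could be looked at again. Each group of a region and time point holds 3 arrays, numbered 1 to 3 in the labels. By the methods of the study 3 mice were used at each time point, 24 in all, and arrays of the same time point and number were taken as 1 mouse, which the labels do not state.

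The cerebellum holds most of the neurons of the brain in a cortex of few cell types. Purkinje cells are its inhibitory output neurons, granule cells are the small and very numerous excitatory neurons whose parallel fibres reach them, and Golgi, basket and stellate cells are its inhibitory interneurons. Bergmann glia are astrocytes whose radial fibres run through the molecular layer. The region arises from the dorsal hindbrain next to the isthmus, under the transcription factors of the En, Pax, Zic and Lhx families, and it lacks the neuron types that the forebrain factors specify. In RNA from whole tissue, fewer cells of a type and less RNA per cell cannot be told apart, and this holds for every level below.

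Values are signal intensities in arbitrary units, and a log2 difference is the level of log2(intensity + 16) in cerebellum minus the mean of the 6 other region means, with the mouse number in the fit (limma). A probe set was called higher or lower at an adjusted p under 0.05 and at least 2-fold. It was called a cerebellar marker when it was higher than each of the 6 regions by that rule, and cerebellum-low when it was lower than each. Of 45037 probe sets tested, 1082 (2.40%) were higher in cerebellum than the mean of the others and 1172 (2.60%) were lower. There were 459 markers (1.02%), which name 267 genes besides 88 probe sets that name no single gene, and 352 cerebellum-low probe sets (0.782%), which name 242 genes besides 27. The median difference over all probe sets was -0.0018 on the log2 scale.

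Separation was wide at the top of both lists. Against every single region, 82 markers were at least 4-fold higher and 11 were at least 16-fold higher, whereas 39 cerebellum-low probe sets were at least 4-fold lower and 0 were 16-fold lower. Without any test of size, the 3 cerebellum arrays lay above all 18 others for 2989 probe sets (6.64%) and below all 18 for 1994 (4.43%). The arrays did not overlap for 458 of the 459 markers and for 348 of the 352 cerebellum-low probe sets, which is close to what the call itself requires. At the edge of the rule, Mtus1, Sri and A930024E05Rik were just inside with differences of 1.0002, 1.0011 and 1.0016 from their nearest region, while Adamts18, Srrm3 and Galnt7 were just outside with 0.99935, 0.99788 and 0.99688.

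**Figure D1:**
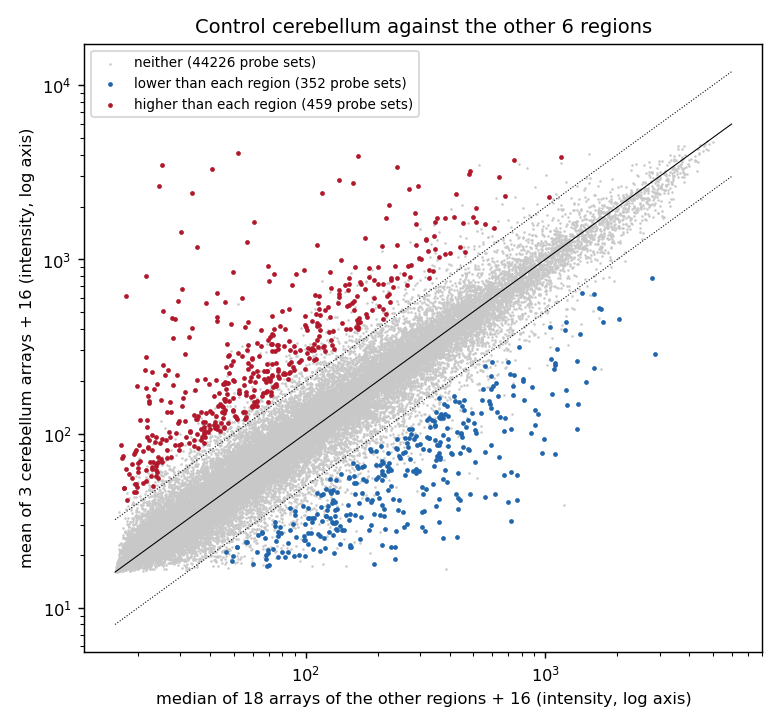
Each point is 1 of 45037 probe sets, with the median intensity of the 18 control arrays of other regions plus 16 on the x axis and the mean of the 3 control cerebellum arrays plus 16 on the y axis, both on log axes. The solid line marks equality and the dotted lines 2-fold, and the 459 markers and 352 cerebellum-low probe sets lie outside them.

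The highest markers were genes of granule and Purkinje cells. Cbln3, a secreted protein of the cerebellin family made by granule cells, read 3836, 3119 and 3499 in the 3 cerebellum arrays, while the lowest, median and highest of the other 18 arrays were 1.24, 9.24 and 114. Its log2 difference was 6.79 ± 0.13 (SE; limma adjusted p = 1.61e-14). Pcp2, a regulator of G-protein signalling found in Purkinje cells, read 2956, 2372 and 2596 against 6.94, 8.5 and 116 at the lowest, median and highest of the others, a difference of 6.46 ± 0.13 (limma adjusted p = 2.90e-14). All cerebellum arrays of both genes lay far above every other array, and the nearest of the others were the 3 arrays of pons and medulla.

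Gabra6, the GABA-A receptor subunit of granule cells, was the next, with 3361, 3161 and 3414 in cerebellum and 5.86, 24.6 and 129 as the lowest, median and highest elsewhere (log2 difference 6.20 ± 0.17, SE; limma adjusted p = 3.38e-13). Fat2, a large protocadherin of granule cell parallel fibres, read 800.03, 797 and 771, and the other arrays had 3.71, 5.61 and 37.6 (difference 5.07 ± 0.11). Ppp1r17, a phosphatase inhibitor of Purkinje cells, read 1178, 1097 and 1233, with 5.75, 19.0 and 45.7 elsewhere (difference 5.002 ± 0.13). In each of these genes the lowest cerebellum array was far above the highest array of any other region.

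The promoter windows of the 4 highest markers are shown because these genes carry the strongest contrast between cerebellum and the rest of the brain. They are RefSeq windows of GRCm38.p6, from 250 bases before to 50 bases after the annotated start, written 5′ to 3′ on the strand of the gene, which is the minus strand in all 4. Capitals mark matches, on either strand, to the motifs searched: CAGATG and CAGCTG (E-boxes), AGGTCA (a single site of nuclear receptors such as RORA), CAGCAGG (ZIC factors) and CCGGAAG (ETS factors). For Pcp2 the outermost of its 4 windows is given.
Cbln3, chr14:55884207-55884506: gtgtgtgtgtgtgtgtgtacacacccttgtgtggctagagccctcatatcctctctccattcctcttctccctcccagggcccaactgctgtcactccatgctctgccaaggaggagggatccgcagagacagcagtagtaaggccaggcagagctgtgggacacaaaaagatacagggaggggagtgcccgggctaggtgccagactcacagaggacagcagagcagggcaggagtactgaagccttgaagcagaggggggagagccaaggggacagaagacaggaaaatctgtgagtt
Pcp2, chr8:3625498-3625797: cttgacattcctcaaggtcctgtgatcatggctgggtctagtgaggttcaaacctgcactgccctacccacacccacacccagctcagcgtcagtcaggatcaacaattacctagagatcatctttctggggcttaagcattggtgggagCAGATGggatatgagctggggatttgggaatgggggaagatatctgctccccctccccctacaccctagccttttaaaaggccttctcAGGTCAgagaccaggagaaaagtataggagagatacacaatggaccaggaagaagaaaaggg
Gabra6, chr11:42321023-42321322: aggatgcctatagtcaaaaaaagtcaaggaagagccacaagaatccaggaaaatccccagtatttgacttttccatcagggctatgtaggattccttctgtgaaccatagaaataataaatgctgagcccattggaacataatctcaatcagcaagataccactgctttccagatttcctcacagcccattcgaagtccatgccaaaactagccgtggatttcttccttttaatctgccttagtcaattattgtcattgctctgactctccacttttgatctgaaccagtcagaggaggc
Fat2, chr11:55312208-55312507: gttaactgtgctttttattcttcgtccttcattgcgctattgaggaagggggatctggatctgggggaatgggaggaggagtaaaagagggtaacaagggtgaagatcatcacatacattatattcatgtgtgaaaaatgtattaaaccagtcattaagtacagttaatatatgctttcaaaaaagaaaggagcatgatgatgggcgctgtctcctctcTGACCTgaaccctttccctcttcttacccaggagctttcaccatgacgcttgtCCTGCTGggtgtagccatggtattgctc

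These letters held CAGATG and AGGTCA in the Pcp2 window, AGGTCA and CAGCAGG on the opposite strand in the Fat2 window, and none of the searched motifs in the Cbln3 and Gabra6 windows. All 4 windows were poor in CpG dinucleotides, with 2 in Cbln3, 1 in Pcp2, 2 in Gabra6 and 4 in Fat2. The marker genes as a group were not: over 283 windows of the 203 marker genes that matched RefSeq, the median was 17 CpG, against 16 over the 18006 windows of genes on the array, and the median GC content was 61.0% against 58.3%. Motif shares were close to those of the array for 4 of the 5 motifs. CAGATG was in 13.1% of marker windows and 13.4% of array windows, CAGCTG in 17.3% and 16.4%, AGGTCA in 14.8% and 14.2%, and CAGCAGG in 9.89% and 11.1%. CCGGAAG was in 4.95% of marker windows against 13.0% of array windows. In the 263 windows of cerebellum-low genes the shares were 16.3%, 21.7%, 6.46%, 9.13% and 4.56% in the same order of motifs. Over all 32841 RefSeq windows, including genes not on the array, the shares in the same order were 17.2%, 16.3%, 16.3%, 10.5% and 8.86%.

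The remaining markers among the 15 largest were of several kinds. Cnpy1, a regulator of FGF signalling at the isthmus, read 657, 636 and 511 in cerebellum and 0.15, 1.72 and 19.8 at the lowest, median and highest elsewhere, most of its other arrays being near 0. Car8, a carbonic anhydrase relative that binds the IP3 receptor of Purkinje cells, had a difference of 4.82 ± 0.12 on the log2 scale. Neurod1, a transcription factor of granule cells, had 4.37 ± 0.12, its other arrays being highest in hippocampus. Cbln1, the granule cell ligand that links parallel fibres to Purkinje cells, had 4.20 ± 0.20.

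Dusp5, a phosphatase that inactivates ERK, had 4.15 ± 0.19, but its 3 cerebellum arrays read 469, 921 and 585, array 2 being about 2 times array 1. Arhgef33 had 4.04 ± 0.17. Crtam, an adhesion molecule known from lymphocytes, had 4.04 ± 0.18, and Il16, whose long neuronal form is a scaffold protein, had 3.93 ± 0.19. En2, a homeobox factor of the midbrain and hindbrain boundary, had 3.98 ± 0.12, and Slc1a6, the glutamate transporter of Purkinje cells, 3.81 ± 0.18. The 15 genes thus included factors, receptors, transporters and signalling enzymes, and all 3 cerebellum arrays were above all others in each, as the naming rule required.

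**Figure D2:**
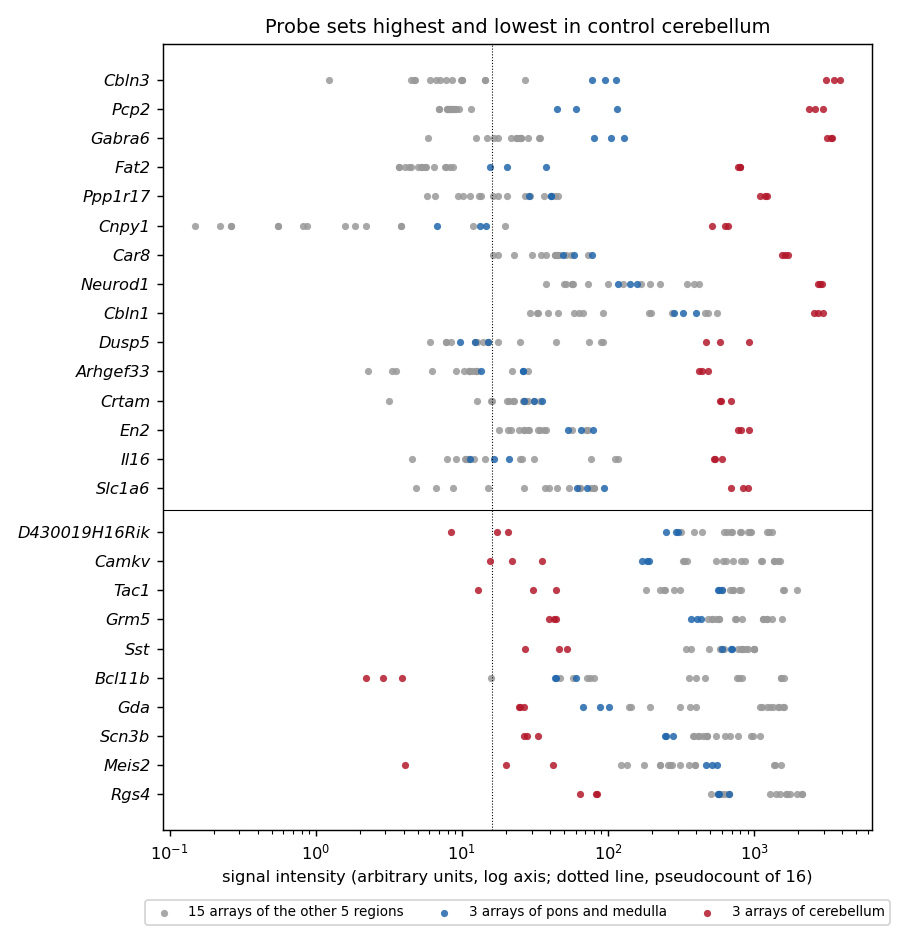
Signal intensity (log axis, arbitrary units) of the 15 genes highest and the 10 lowest in control cerebellum, where each of the 21 control arrays is a point. Cerebellum arrays are separate from all others in every row, and for Cbln3, Pcp2 and Gabra6 the arrays of pons and medulla lie between cerebellum and the rest.

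The arrays of pons and medulla were the nearest to cerebellum in 108 of the 459 markers (23.5%), and striatum in 80, cerebral cortex in 72, hippocampus in 70, midbrain in 65 and thalamus in 64. For the 3 largest markers the pons and medulla arrays stood above the other 15. Cbln3 read 77.9, 94.7 and 114 there and at most 27.2 in the other 5 regions. Pcp2 read 45.0, 60.03 and 116 there and at most 11.5 elsewhere, and Gabra6 read 79.6, 105 and 129 there and at most 34.3 elsewhere. The third array was the highest of the 3 for each gene. Whether dissection carried some cerebellar tissue into these samples was not tested.

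Pairwise comparisons gave counts of the same order for every region. Cerebellum was higher than cerebral cortex in 1387 probe sets (3.08%) and lower in 1689 (3.75%), higher than hippocampus in 1336 (2.97%) and lower in 1561 (3.47%), and higher than striatum in 1434 (3.18%) and lower in 1798 (3.99%). Against thalamus the counts were 1291 (2.87%) and 1344 (2.98%), against midbrain 1241 (2.76%) and 1233 (2.74%), and against pons and medulla, its neighbour in the hindbrain, 1341 (2.98%) and 1263 (2.80%). Lower calls outnumbered higher calls most against striatum and cortex.

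Purkinje cell genes were mostly higher. Of the 19 list members measured, 12 were higher (8 of them markers) and 1 was lower, with a median difference of 1.36 on the log2 scale. Over all 18193 genes, each by its brightest probe set, 2.46% were higher and 3.64% lower, with a median of -0.025. Beside the genes above, Homer3, a postsynaptic scaffold of metabotropic glutamate receptors, read 931, 798 and 850.1 against 52.0, 82.7 and 226 (lowest, median and highest of the others; difference 3.08 ± 0.12, limma adjusted p = 2.29e-11). Lhx1, a LIM homeobox factor of these neurons, read 377, 408 and 379 against 0.54, 17.4 and 106 (difference 3.40 ± 0.10, limma adjusted p = 9.78e-13). Neither gene overlapped with any other region.

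Some genes used as Purkinje cell markers were not particular to cerebellum at the level of whole regions. Pcp4, a calmodulin-binding peptide, read 3614, 3257 and 3617, within the 1193, 2286 and 4238 of the other arrays, which were highest in striatum, and its difference of 0.55 ± 0.05 was under 2-fold. Prkg1, the cGMP-dependent kinase of these cells, had 0.9955 ± 0.08, just under the threshold. This probe set passed 2-fold with a pseudocount of 1 (1.08) and without mouse 2 (1.03), cerebral cortex (1.015) or hippocampus (1.08). A dimmer Prkg1 probe set was called higher (1.16 ± 0.20), and neither was a marker. The 1 lower member, named after its value was seen, was Foxp2, a transcription factor shared with striatal and thalamic neurons, at 155, 138 and 134 against 70.9, 383 and 872 (difference -1.11 ± 0.07, limma adjusted p = 2.08e-09). It was highest in striatum, 3 of its 6 probe sets were called lower, and the call ended without midbrain, without striatum or without thalamus.

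Granule cell genes were the most uniform group. Of 20 members measured, 18 were higher, 12 of these were markers, 0 were lower, and the median difference was 2.30. The 3 arrays of cerebellum were above all others in 18 of the 20, beside 1285 of all 18193 genes. Cbln1, by its brightest probe set, read 3780, 3029 and 3296 in cerebellum against 70.6, 226 and 636, with thalamus as the nearest region. En2 read 921, 777 and 812 against 17.97, 33.7 and 78.3, with midbrain the nearest. The 2 members that were not called were Slc17a7, the vesicular glutamate transporter that cortical neurons also use, at 952, 901 and 894 against 97.4, 321 and 2277 (difference 0.93 ± 0.16, highest in cerebral cortex), and Unc5c, a netrin receptor, at 380.4, 386 and 358 against 164, 243 and 324 (difference 0.59 ± 0.07). Slc17a7 passed 2-fold without mouse 2 (1.001), cerebral cortex (1.32) or hippocampus (1.28), and 19 of the 20 were then higher.

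Interneurons of the cerebellar cortex gave a mixed list. Of 12 members, 4 were higher and 1 lower, with a median of 0.41, and none was a marker. Tfap2b, a factor of inhibitory precursors, read 293, 319 and 293 against 11.9, 38.1 and 245 (difference 2.31 ± 0.20, limma adjusted p = 2.14e-07). Kit, a receptor kinase of molecular layer interneurons, read 717, 679 and 768 against 65.3, 162 and 394 (difference 2.01 ± 0.07). Both were above all other arrays. Slc6a5, the glycine transporter of Golgi cells and of brainstem neurons, was higher than the mean of the regions at 118, 95.3 and 93.9 against 3.01, 8.98 and 720.1 (difference 1.38 ± 0.10), yet pons and medulla exceeded cerebellum by 2.48 on the log2 scale. Tfap2a was also higher (1.24 ± 0.13). Nxph1, a neurexin ligand, was cerebellum-low at 87.3, 75.7 and 87.1 against 146, 260.2 and 482 (difference -1.58 ± 0.11). Sorcs3, a sorting receptor (-0.57 ± 0.08), and Ptprk, a receptor phosphatase (-0.33 ± 0.09), were not called.

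Genes of unipolar brush cells and of the cerebellar nuclei split in both directions, with 3 of 9 higher, 5 lower and a median of -1.19. Eomes, the factor of unipolar brush cells, read 214, 474 and 239 against 18.3, 31.1 and 49.4 (difference 2.69 ± 0.19, limma adjusted p = 2.00e-08). It was a marker, and array 2 read about 2 times arrays 1 and 3. Calb2, the calcium buffer calretinin of unipolar brush and granule cells, read 2282, 2256 and 2151 against 38.3, 609 and 1443 (difference 2.52 ± 0.23), and its arrays did not overlap. Meis1, a TALE homeobox factor named after its value was seen, was the third higher member (1.11 ± 0.11).

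The lower members of that list were genes that forebrain or thalamus expresses strongly. Nrgn, a calmodulin-binding protein of forebrain dendrites, read 41.7, 47.7 and 92.0 against 157, 1079 and 3507 (difference -3.44 ± 0.20, limma adjusted p = 1.38e-09), array 3 being the highest of the cerebellum arrays. Slc17a6, the vesicular transporter of nuclear and diencephalic neurons, read 70.4, 114 and 156 against 40.2, 708 and 1846 (difference -1.92 ± 0.24). Its cerebellum arrays overlapped with those of striatum, hippocampus and cortex, and thalamus was the highest region. Meis2 (-2.57 ± 0.10), Tbr1 (-1.88 ± 0.09) and Lhx9 (-1.19 ± 0.17) were also lower, and Lhx9 was named after its value was seen. Lmx1a, a factor of the rhombic lip, was not called (-0.05 ± 0.13).

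Astrocyte genes differed by gene. Of 16 members, 7 were higher, 3 of them markers, 0 lower, and the median was 0.76. Gdf10, a TGF-beta family ligand of Bergmann glia, read 977, 779 and 941 against 23.1, 53.7 and 94.7 (difference 3.71 ± 0.12, limma adjusted p = 3.28e-12). Vim, the intermediate filament of radial glia, read 1422, 1177 and 1223 against 221, 301 and 448 (difference 1.93 ± 0.08), and Timp4, a metalloproteinase inhibitor, had 1.74 ± 0.06. Their cerebellum arrays were above all others.

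The glutamate transporters of astrocytes went in opposite directions. Slc1a3 (GLAST) read 3176, 2767 and 2848 against 633, 1517 and 1910, a difference of 1.20 ± 0.08 (limma adjusted p = 6.44e-09). Slc1a2 (GLT-1) read 1795, 1772 and 1670 against 2579, 3109 and 4150, a difference of -0.89 ± 0.06 that was under 2-fold although all 3 arrays were below the other 18. A dimmer Slc1a2 probe set was called lower (-1.34 ± 0.12), and the others were not (-0.76, -0.45 and -0.35). Hopx, a homeodomain cofactor (1.67 ± 0.09), and S100b, a calcium-binding protein (1.19 ± 0.08), were higher, S100b with pons and medulla only 0.13 below. Aqp4, the water channel of end feet, read 1634, 1580 and 1597 against 484, 863 and 1750 and was not called (0.82 ± 0.07). This Aqp4 probe set passed 2-fold without pons and medulla (1.005). A dimmer one was called higher, just over the threshold (1.0045 ± 0.08), and another was not called (0.71 ± 0.14).

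Transcription factors that pattern the region in the embryo were called in part. Of 30 factors of the isthmus, rhombic lip and hindbrain, 10 were higher, 3 were lower and 17 were not called, with a median of 0.28. Zic1, a zinc finger factor of granule cells, read 3744, 3257 and 3453 against 167.8, 513 and 2350 (difference 2.56 ± 0.12, limma adjusted p = 1.09e-10), and thalamus was its nearest region, 0.63 below. Zic5 read 302, 282 and 200.1 against 17.2, 47.7 and 100.5 (difference 2.07 ± 0.19). Pax6, a paired box factor of granule cells, read 282, 362 and 331 against 46.0, 69.4 and 86.9 (difference 2.03 ± 0.10). All 3 were above every other array.

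Other patterning genes were dim in cerebellum. En1, the paralogue of En2, read 33.7, 25.7 and 24.1 against 3.4, 10.2 and 51.1, highest in midbrain, and was not called (0.49 ± 0.17). Pax3 was not called either (0.39 ± 0.33). Hoxa2 and Hoxb2, factors of the rhombomeres behind the cerebellum, were not called against the mean (-0.22 ± 0.14 and -0.06 ± 0.21), and pons and medulla exceeded cerebellum by 1.64 and 1.88 on the log2 scale.

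**Figure D3:**
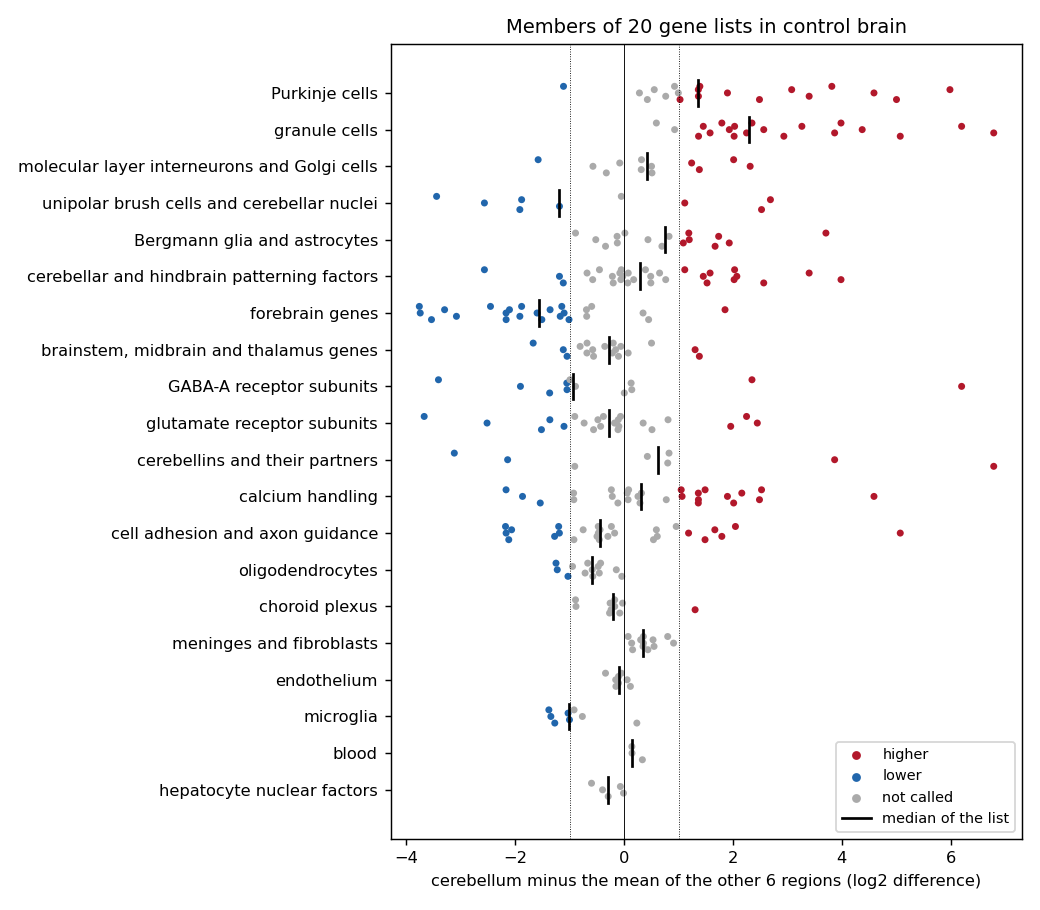
Log2 differences, cerebellum minus the mean of the other 6 regions, of the members of 20 gene lists, each gene by its brightest probe set. Red points were called higher, blue points lower and grey points neither, black bars are list medians, and dotted lines mark 2-fold. The granule cell list has its median at 2.30, and the forebrain list at -1.55.

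Forebrain genes were the largest group of lower genes. Of 24 measured, 18 were lower, 4 of these cerebellum-low, and 1 was higher, with a median of -1.55. The summed intensity of the list was 3528 to 3826 in cerebellum and 3897 to 4109 in pons and medulla. Midbrain had 4516 to 4752 and thalamus 5052 to 5422. Cerebral cortex had 16790 to 17980, hippocampus 17080 to 18570 and striatum 28320 to 30770. The list was thus lowest in cerebellum, but its level was also low in pons and medulla, midbrain and thalamus. Most of the 18 were not lower than each region by the rule. Ddn, a postsynaptic protein of forebrain neurons, read 29.1, 17.3 and 22.5 against 39.1, 1178 and 3104 (difference -3.76 ± 0.13, limma adjusted p = 5.16e-12). Bcl11b, a zinc finger factor of corticospinal and striatal neurons, read 5.28, 14.4 and 19.2 against 55.9, 289.6 and 1684 (difference -3.54 ± 0.17). Icam5, an adhesion molecule of telencephalic dendrites, read 3.77, 4.16 and 19.5 against 34.5, 358 and 1106 (difference -3.30 ± 0.14). The cerebellum arrays of all 3 lay below every other array, those of pons and medulla or of thalamus being the nearest.

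Lhx2, a LIM homeobox factor of the cortex and hippocampus (-3.08 ± 0.11), and Crym, a thyroid hormone binding protein (-2.45 ± 0.14), were lower as well. Emx1, a cortical homeobox factor, read 9.3, 4.17 and 6.44 against 3.44, 9.01 and 86.8 and was not called (-0.60 ± 0.22), the median of the other arrays being about as low. Wfs1, an endoplasmic reticulum protein, was not called (-0.69 ± 0.06). The 1 higher member, named after its value was seen, was Neurod2, a neuronal bHLH factor, at 733, 710.4 and 646 against 55.6, 148 and 704 (difference 1.85 ± 0.12), and hippocampus was only 0.03 below it on the log2 scale.

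The 10 genes lowest in cerebellum against every region were led by D430019H16Rik, which read 20.8, 8.44 and 17.3 against 250.2, 701 and 1318 (difference -4.38 ± 0.10, limma adjusted p = 7.65e-14). Camkv, a kinase-like calmodulin-binding protein, read 22.1, 15.6 and 35.5 against 172, 682 and 1497 (difference -3.99 ± 0.10). The neuropeptide genes Tac1 (substance P precursor) and Sst (somatostatin) had differences of -3.74 ± 0.14 and -3.65 ± 0.10. Levels in cerebellum were near or below the pseudocount of 16 for several of them, so the size of these differences is compressed.

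Gda, a guanine deaminase of forebrain dendrites (-3.60 ± 0.09), Scn3b, a sodium channel beta subunit (-3.52 ± 0.07), Rgs4, a regulator of G-protein signalling (-3.47 ± 0.08), and Meis2, by another probe set than above (-3.49 ± 0.20), were also among the 10. The Meis2 probe set read 4.11, 20.02 and 42.3 in the 3 cerebellum arrays and thus varied more between mice than the others.

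Genes of the brainstem, midbrain and thalamus were mostly not called against the mean of the 6 regions. Of 18, 2 were higher and 3 lower, with a median of -0.29. The higher members were Slc6a5, above, and Otx2, a homeobox factor of the midbrain and choroid plexus that adult granule cells of the posterior lobules also express, at 142, 117 and 129 against 1.24, 59.8 and 169 (difference 1.304 ± 0.19, limma adjusted p = 5.13e-05), with midbrain 0.13 above it on the log2 scale. Tcf7l2, a Wnt effector of thalamic neurons (-1.67 ± 0.22), Gbx2, a homeobox factor of thalamus (-1.12 ± 0.11, and under 2-fold without thalamus at -0.69 or without midbrain at -0.98), and Tph2, the serotonin-synthesising enzyme of the raphe (-1.05 ± 0.34), were lower. The call of Tph2 rested on every mouse, since it was lost without mouse 1 (-1.18, p over the threshold), mouse 2 (-0.98) or mouse 3 (-0.99), and without pons and medulla (-0.52) or midbrain (-0.85).

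Receptor subunits differed in both directions between cerebellum and the rest of the brain. Among 12 GABA-A receptor subunits, 2 were higher and 5 lower, and the median was -0.94. Gabra6 and Gabrd, the subunits of the extrasynaptic receptors of granule cells, were the higher pair, and Gabrd read 1412, 1340 and 1486 against 36.3, 345 and 841 (difference 2.35 ± 0.08, limma adjusted p = 5.60e-12). Gabra5, a subunit of hippocampal extrasynaptic receptors, read 12.5, 13.0 and 13.2 against 172, 242 and 1041 (difference -3.41 ± 0.06). Gabra3 read 42.1, 38.6 and 33.8 against 97.0, 192 and 322 (difference -1.90 ± 0.10). The arrays of Gabra5 and Gabra3 were below all others.

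Gabra4 (-1.37 ± 0.07), Gabrg3 (-1.05 ± 0.11) and Gabrb1, named after its value was seen (-1.05 ± 0.10), were lower, and Gabrg3 was under 2-fold without mouse 3 (-0.93) and without striatum (-0.92). Gabra2 was not called by its brightest probe set, at -0.99 ± 0.08. That probe set passed 2-fold with quantile normalization (-1.02), with array medians subtracted (-1.015) and with a pseudocount of 1 (-1.05). It also passed without mouse 1 (-1.004), mouse 3 (-1.05), midbrain (-1.14), pons and medulla (-1.09) or thalamus (-1.10). A dimmer Gabra2 probe set was called lower (-1.11 ± 0.13), and the others were not (-0.76, -0.23 and -0.06). Gabrb2, a beta subunit used by most receptors, read 1612, 1564 and 1594 against 909, 1450 and 1994 and was not called (0.13 ± 0.07).

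Of 22 glutamate receptor genes, 3 were higher, all of them markers, and 5 were lower, 3 of them cerebellum-low, with a median of -0.28. Grin2c, the NMDA receptor subunit of mature granule cells, read 767, 621 and 566 against 90.6, 121 and 184 (difference 2.25 ± 0.09, limma adjusted p = 1.27e-11), while Grin2b, the subunit of forebrain neurons, read 47.8, 57.3 and 53.8 against 114, 492 and 837 (difference -2.52 ± 0.08). Grm4, the presynaptic receptor of parallel fibres, read 1867, 1708 and 1571 against 146.6, 338 and 535 (difference 2.45 ± 0.09), while Grm5 read 44.2, 39.2 and 42.7 against 369, 659.6 and 1541 (difference -3.67 ± 0.06). None of these 4 overlapped with any other region, and the members of each pair went in opposite directions.

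Gria4, an AMPA receptor subunit of Bergmann glia and granule cells, read 1840, 1696 and 1711 against 256, 486 and 705 (difference 1.96 ± 0.08), and Grm7, a presynaptic receptor, was lower (-1.52 ± 0.08). Grm3 and Grik5, named after their values were seen, were also lower (-1.10 ± 0.13 and -1.36 ± 0.14). Gria1 and Gria2, the AMPA receptor subunits of most excitatory neurons, were not called (-0.18 ± 0.09 and -0.38 ± 0.14), and Gria2 read 1171, 1495 and 1213 against 530.1, 1890 and 2949.

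The cerebellins, secreted C1q-like proteins that bridge presynaptic neurexins and GluD receptors, divided evenly, and their direction held for each array. Cbln1 and Cbln3 were the higher pair, with the values above. Cbln2 read 10.7, 4.62 and 3.58 against 76.0, 221 and 326 (difference -3.12 ± 0.10, limma adjusted p = 1.91e-12), and Cbln4 read 24.999, 25.9 and 50.2 against 80.2, 211 and 355 (difference -2.14 ± 0.10, limma adjusted p = 2.01e-10). Both were cerebellum-low, with midbrain the highest region. Of the 8 members of the list of cerebellins and partners, 2 were higher and 2 lower, and the median was 0.61. Grid1, which encodes a GluD receptor, was under 2-fold although below all others (-0.91 ± 0.08), and Grid2ip, a scaffold protein of Purkinje cell spines, read 40.4, 47.2 and 52.1 against 14.4, 28.3 and 57.9 (0.43 ± 0.14). This Grid1 probe set passed 2-fold with a pseudocount of 1 (-1.015), and the dimmer Grid1 probe set was called lower (-1.21 ± 0.12). With the dimmest probe set of each gene, 3 members of the list were lower.

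Calcium handling was among the lists with many higher members: 12 of 27 were higher, 3 were lower and the median was 0.32. Pvalb, the calcium buffer parvalbumin of Purkinje cells and interneurons, read 3927, 3394 and 3888 against 137, 724 and 1895 (difference 2.49 ± 0.17, limma adjusted p = 8.97e-09). Atp2a3, a pump of the endoplasmic reticulum (SERCA3), read 505, 469 and 531 against 59.0, 97.7 and 154 (difference 2.16 ± 0.15). Camk4, a nuclear calmodulin-dependent kinase of granule cells, read 1857, 2032 and 1884 against 183, 389.6 and 1474 (difference 2.01 ± 0.07). All were above every other array, and striatum was the nearest region for Atp2a3 and Camk4.

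Camk2a, the calmodulin-dependent kinase of forebrain synapses, went the other way at 111, 120.2 and 216 against 171, 725 and 2450 (difference -2.17 ± 0.19, limma adjusted p = 1.74e-07). Array 3 lay within the range of the others, and 5 of the 6 Camk2a probe sets were called lower. Itpr2, an IP3 receptor (-0.11 ± 0.17), and Ryr2, a ryanodine receptor (0.25 ± 0.07), were not called.

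Genes of other cell types were followed to see what else the samples held. Microglia genes were lower: of 8 members, 5 were lower and 0 higher. In 7 of the 8 all 3 cerebellum arrays were below the other 18, beside 1153 of all 18193 genes. The summed intensity of the list was 943 to 1056 in cerebellum against 1919 to 3279 elsewhere. Csf1r, the receptor that microglia depend on, read 405, 368 and 404 against 862, 1027 and 1518 (difference -1.38 ± 0.07, limma adjusted p = 1.58e-10). Cx3cr1, the fractalkine receptor, read 42.3, 49.96 and 50.8 against 72.8, 140.2 and 269.8 (difference -1.35 ± 0.18), and P2ry12, a purinergic receptor, 91.9, 99.5 and 92.6 against 170.1, 247 and 357 (difference -1.27 ± 0.07). Striatum was the highest region in all 3.

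C1qa (-1.03 ± 0.09) and C1qb (-1.004 ± 0.07), complement components made by microglia, lay at the edge of the call, and they were under 2-fold without mouse 2 (-0.98 and -0.99) and without mouse 3 (-0.92 and -0.90), which left 4 and 3 members of the list called lower. They were also under 2-fold without striatum (-0.95 and -0.93), which left 3, and C1qb without cerebral cortex (-0.9956), which left 4. Tmem119 and Aif1 were below all others and under 2-fold (-0.77 ± 0.08 and -0.92 ± 0.14). Aif1 passed 2-fold with a pseudocount of 1 (-1.33) and without mouse 1 (-1.01) or mouse 2 (-1.004). It is thus 1 of the 4 members called lower without mouse 2, and without mouse 1 there were 6. With the dimmest probe set of each gene in place of the brightest, 2 of the 8 were called lower.

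Oligodendrocyte genes were at the lower end of the range: 3 of 13 were lower, 0 higher, and the median was -0.59, with a summed intensity of 11910 to 12600 in cerebellum against 10540 to 22850 elsewhere. Olig2, a factor of the lineage, read 67.1, 114 and 105 against 129.9, 231 and 418 (difference -1.25 ± 0.10), Opalin, a late myelin protein, had -1.23 ± 0.10, and Mal, a myelin proteolipid, -1.03 ± 0.09, which was under 2-fold with quantile normalization (-0.99) and without mouse 1 (-0.96), midbrain (-0.93), pons and medulla (-0.95), striatum (-0.99) or thalamus (-0.9985). Mbp, myelin basic protein, read 4824, 4490 and 4536 against 4277, 4792 and 5471 and was not called (-0.04 ± 0.07), and Mog was not called either (-0.43 ± 0.10).

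Choroid plexus genes differed among the cerebellum arrays themselves. Ttr, transthyretin, read 712, 345 and 4684 in arrays 1, 2 and 3 and 68.5, 1304 and 5107 at the lowest, median and highest elsewhere, and Kl, the klotho gene, read 1.72, 17.7 and 93.9. Array 3 was high in both. The summed intensity of the 10 genes was 740.5 to 5511 in cerebellum and 513.2 to 6724 elsewhere, and 1 of the 10 was called higher, the Otx2 above. Without cerebellum array 3, 1145 probe sets were higher, 1243 lower and 487 were markers, and 2 of the choroid plexus genes were called lower in place of 0.

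For the meninges, 0 of 12 genes were called (median 0.35, summed intensity 4713 to 5728 in cerebellum and 2090 to 6540 elsewhere), Dcn, decorin, reading 242, 219 and 241 against 77.7, 205 and 778 and Lum, lumican, 0.35 ± 0.10 on the log2 scale. Endothelium had 0 of 8 called (median -0.10, 796.6 to 988.1 and 776.8 to 1221), with Cldn5, a tight junction protein, at 252, 284 and 202 against 212, 271 and 362 and Pecam1 at -0.15 ± 0.08. Red cell genes had 0 of 3 called (median 0.14, 58.28 to 136.3 and 36.7 to 193.5), with Hba-a1 at 0.14 ± 0.21 and Alas2 at 0.14 ± 0.16. At an unadjusted p under 0.05 (limma) and any size of difference, 8 of the 12 meningeal genes, 1 of the 8 endothelial genes and 0 of the 3 red cell genes passed. Of all 45037 probe sets, 13820 passed at any size even at an adjusted p under 0.05 (limma). The share of all genes passing unadjusted was not computed, so these 3 counts have no background of their own. The part of these cell types in the results above was not tested.

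The contrast was then looked at in the arrays of hypoxia and reoxygenation, which took no part in calling the markers or the cerebellum-low probe sets. There, 1029 probe sets (2.28%) were higher in cerebellum than the mean of the other regions and 1121 (2.49%) lower by the same rule, with 21 mice in the fit. Of the 459 markers found in the controls, 450 (98.0%) were called higher again, and 349 of the 352 cerebellum-low probe sets (99.1%) were called lower again, while 0 of either changed sign. The median difference was 1.80 for markers in the controls and 1.73 in the later arrays, and -1.99 and -1.94 for cerebellum-low probe sets. Of the wider lists, 944 of 1082 (87.2%) were higher again and 1033 of 1172 (88.1%) lower again.

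All 21 later cerebellum arrays lay above all later arrays of the other regions for 837 probe sets (1.86%), and below for 672 (1.49%), and these held 384 of the 459 markers (83.7%) and 291 of the 352 cerebellum-low probe sets (82.7%). Cbln3 had a difference of 6.70 on the log2 scale in the later arrays, Gabra6 6.16, Ppp1r17 5.03 and Fat2 5.17, and on the other side Cbln2 had -2.95 and Grm5 -3.66. Of the 116 called list members, each counted once, 110 were called the same way again, but the later arrays are not independent for this count, since the probe set of each list gene was the brightest over all arrays.

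**Figure D4:**
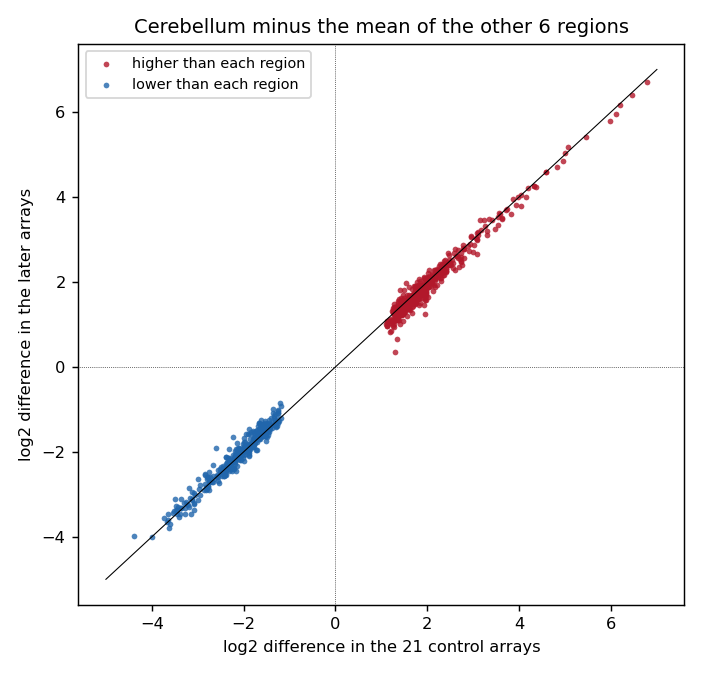
Log2 difference between cerebellum and the mean of the other 6 regions in the 21 control arrays (x axis) and in the later arrays (y axis) for the 459 markers and 352 cerebellum-low probe sets, with the line of equality. Red points stay positive and blue points negative.

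Members of all 20 gene lists, which include lists of other regions and other cell types, were followed in cerebellum alone over the 8 groups. This was to see how far they moved with hypoxia. An F-test over the 7 later groups against control (limma) called 1087 probe sets (2.41%) at an adjusted p under 0.05. Of the 263 list members, each counted once, 10 were called (3.80%), beside 2.89% of all genes by their brightest probe set. Of the 20 granule cell genes, 4 were called, of the 19 Purkinje cell genes 0, and at an unadjusted p under 0.05 these counts were 7 and 0. The share of all genes passing this F-test unadjusted was not computed. Pcp2 had a mean of 2641 ± 295 (SD, n = 3) in controls and 2568 ± 61.3 (SD, n = 3) at H3, and Gabra6 3312 ± 134 (SD, n = 3) and 3228 ± 92.8 (SD, n = 3). Cbln3 had 3485 ± 359 (SD, n = 3) and 3408 ± 173 (SD, n = 3). These control and H3 values overlapped for all 3 genes.

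The 10 members that were called, named after their values were seen, were Fat2, Gabrd, Mab21l1, En2, Zic4, Cntn6, Cdh8, Opalin, Olig2 and Slco1a4, and their largest shift at any time point was -0.75 on the log2 scale (Cdh8 at R3). Mab21l1, a gene of granule cells with a role in cell fate, read 333, 360.3 and 340.1 in controls, 259, 199 and 231 at H3 and 212, 229 and 261 at R1. It differed from control by -0.56 ± 0.09 (SE) at H3 (limma adjusted p = 0.00432) and -0.53 ± 0.09 at R1 (limma adjusted p = 0.00728), and its arrays at both times lay below all 3 controls. En2 read 662, 586 and 629 at R1, a difference of -0.41 ± 0.10 (SE; limma adjusted p = 0.0435), also below all 3 controls.

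Cntn6, a contactin of granule cell synapses, read 182, 215 and 178 at R3 against 285, 289.9 and 259 in controls, a difference of -0.50 ± 0.08 (SE; limma adjusted p = 0.0294). Cdh8, a cadherin, read 42.3, 56.9 and 45.3 at R3 against 83.2, 86.9 and 105 in controls. Both were below their controls in all 3 arrays, and Cdh8 passed the F-test (limma adjusted p = 0.00870) without passing the test of any single time point (limma adjusted p = 0.0546 at R3). For the other 7 of the 10 members besides Mab21l1, En2 and Cntn6, no single time point passed.

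**Figure D5:**
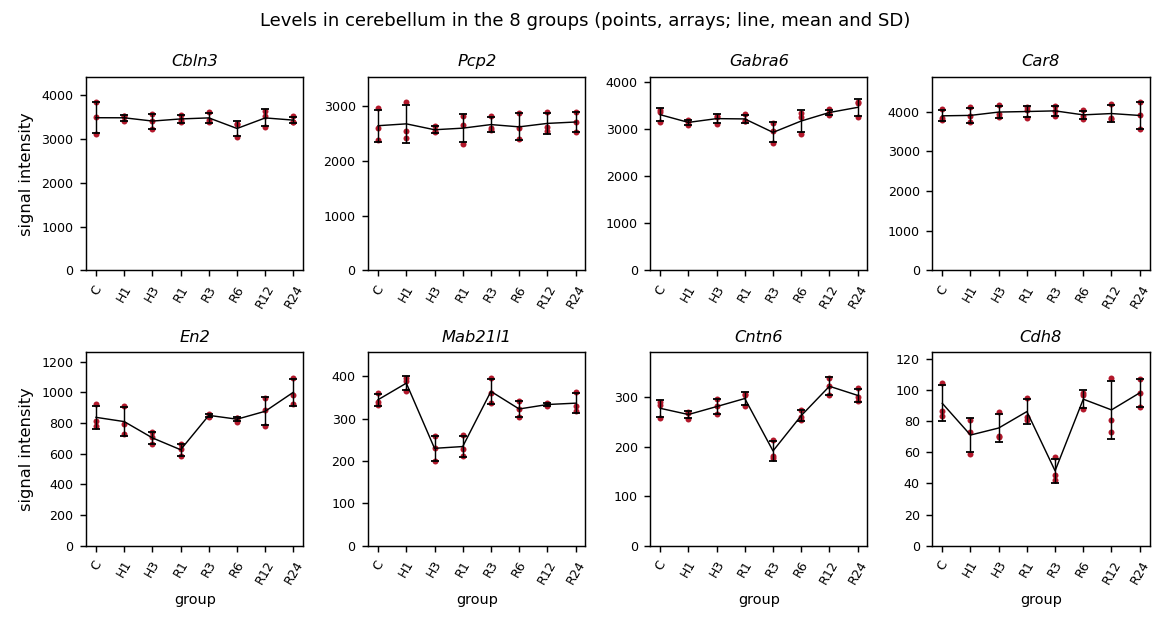
Signal intensity in cerebellum for 8 genes in the 8 groups, where points are arrays and the line and bars give the mean and SD of 3 arrays (y axes start at 0). Cbln3, Pcp2, Gabra6 and Car8 did not pass the F-test, while Mab21l1 was lower at H3 and R1, En2 at R1 and Cntn6 at R3, and Cdh8 passed the F-test but no single time point.

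By position in RefSeq (GRCm38.p6), 21 pairs of neighbouring marker genes lay within 100 kb of each other, and those outside the lists are named here for their position. En2 and Cnpy1, both among the 15 highest, are 28629 bases apart on chromosome 5. Zic5 and Zic2 are 9726 bases apart on chromosome 14, and on the same chromosome Cbln3 lies 556 bases from Khnyn. Lhx1 lies 126 bases from the noncoding gene Lhx1os on chromosome 11, and Cbln1 220 bases from Gm2694 on chromosome 8. No share expected for other gene sets was computed, so these are positions only, and probe sets of genes this close may read overlapping transcripts.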

How the data were processed

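RNA of 7 brain regions from 24 mice, 3 at each time point, was hybridised by the authors to Affymetrix mouse genome arrays, 1 per sample. The authors deposited linear signal intensities. Every control array has the same trimmed mean (125, with 2% of probe sets trimmed at each end), and the later arrays were not looked at for this. GCRMA and division by sham means, which the methods describe, are thus not visible in the control values. The submitters' processing notes name GCOS 1.3.

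From that table, 64 array control probe sets were left out of 45101. Of the 45037 kept, 34945 name 1 gene in the platform annotation, 932 several and 9160 none, giving 18193 genes. A pseudocount of 16 was added before log2, since 24.4 to 30.2% of values of a control array lie below 16, and differences of dim genes are therefore understated. The number of arrays and the signal over background limit the precision. The 7 region means of the 21 control arrays were fitted with limma 3.58.1 (lmFit, contrasts.fit, eBayes; R 4.3.3) with the mouse number as a fixed block, and p values were adjusted by Benjamini-Hochberg over all probe sets. The fit was tested on simulated data. The later arrays were fitted as group means for each region and time point with time point by mouse number as a block, and the 24 cerebellum arrays with 8 group means. By the methods the 3 arrays of a group come from 3 mice.

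Deviations from the region means correlated at 0.0658 on average over 63 pairs of arrays with the same number and at -0.0329 over 126 other pairs. The 2 averages are tied to each other, since the deviations of a region cancel over its arrays. Of the 63 pairs 21 exceeded 0.1, beside 2 of the 126 others. Pairs with the same number were thus more often alike, but most of the 63 stayed under 0.1. The data do not settle the pairing for every array, and it is taken from the numbers alone. Members and gene lists were chosen with earlier results of these data known. The genes named were the 15 largest markers and 10 largest cerebellum-low genes without overlap, up to 6 called and 2 uncalled members of each list, the cerebellins and Hnf4a, each list gene by the probe set brightest over all arrays. Others are named as chosen after their values were seen. Promoter windows and positions came from RefSeq tables (GRCm38.p6), and figures were drawn in matplotlib 3.10.9 (Python 3.11.15). Genes of the lists that are not mentioned as measured are not reported here.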

Additional observations from a re-analysis of the deposited data

How the results depend on the processing

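The counts of calls over all probe sets stayed within 1.5 times of the reported counts under quantile normalization, subtraction of array medians, eBayes with trend and robust options, a random replicate block, and without any mouse number or any cerebellum array. So did the counts of higher and lower against the mean, which were the only ones run there, under within-mouse differences and without any other region. Without midbrain 1 gene of the brainstem list was lower (3 with it), without thalamus 1 patterning factor (3), and without pons and medulla 5 calcium handling genes (3). Quantile normalization and centring moved the median difference to -0.0031 and -0.0222. With no replicate block, 1082 probe sets were higher and 1171 lower than the mean of the other regions, with 459 markers, 352 cerebellum-low, and 2599 called against pons and medulla (2604 with the block), and the pairing thus changed no count by over 1.5 times. The counts in the later arrays were the same without it (1029 and 1121), and a fixed replicate block left 10 list members called over the 8 groups, with 7 and 12 at pseudocounts of 1 and 32 and 8 to 9 without 1 control array.

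With a pseudocount of 1, 1851 were higher and 2080 lower, 639 cerebellum-low, and 4316 called against pons and medulla, and with 32, 227 were cerebellum-low. Keeping only probe sets above the median level gave 698 higher and 273 markers. At 1.5-fold there were 3023 and 2824 higher and lower than the mean, 1124 markers, 858 cerebellum-low, and 6934 against pons and medulla, and at 4-fold 193, 209, 82, 39 and 380 in the same order. The methods' t-test, which the study ran over time points within a region, was run here over regions (1.5-fold, 3 arrays against 18). Only probe sets that first passed a one-way ANOVA over the 7 regions (Benjamini-Hochberg, adjusted p under 0.05) could count. With the t-test unadjusted, 2570 were higher and 2255 lower, and after Benjamini-Hochberg 2280 and 1706. Forebrain list members called lower were 10 and 5 in these 2 settings (18 as reported). The t-test sets the spread among 6 unlike regions against cerebellum. Of the 127 named probe sets, 0 reversed under any setting. Slc6a5, Gbx2, Tph2, Gabrg3, C1qa and C1qb were under 2-fold with a pseudocount of 32. With the dimmest probe set of each gene, 9 Purkinje cell, 15 granule cell and 7 calcium handling genes were called higher, and 14 forebrain, 3 GABA-A receptor and 2 microglia genes lower.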

Other observations

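Adhesion and guidance genes divided about equally, with 6 of 27 higher, 7 lower and a median of -0.44. Cdh15, a cadherin, read 246, 206 and 237 in cerebellum against 35.1, 42.9 and 54.3 at the lowest, median and highest of the other arrays (log2 difference 2.04 ± 0.09, SE; limma adjusted p = 8.53e-11), and Fat2 was the other marker of the list. A netrin receptor and a Slit ligand were on the other side. Dcc, a netrin receptor, read 14.68, 25.8 and 21.5 against 70.3, 119 and 282 (difference -2.07 ± 0.10), and Slit2, a ligand of Robo receptors, 27.6, 51.3 and 45.3 against 122, 244 and 345 (difference -2.12 ± 0.10), and neither overlapped with another region. The Eph receptors Epha4 (-2.17 ± 0.09) and Epha5 (-2.18 ± 0.30) were lower too, although the 3 cerebellum arrays of Epha5 read 6.49, 49.4 and 22.5 and so differed among themselves. The netrin receptors Unc5a (-0.50 ± 0.10) and Unc5b (0.96 ± 0.10) were not called.

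None of the 5 hepatocyte nuclear factor genes measured was called by limma (median -0.29), and 1 of the 5 had an unadjusted p under 0.05. The share of all genes passing unadjusted was not computed. The paper proposes a role for Hnf4a in hypoxic cerebellum from target genes and promoter sites, and states that its arrays did not detect the mRNA there. The Hnf4a probe set brightest over all arrays read 28.6, 23.3 and 30.9 in control cerebellum against 20.03, 37.0 and 68.2 elsewhere. Its difference was -0.29 ± 0.16 (SE; limma adjusted p = 0.203). The other Hnf4a probe sets averaged 1.55, 20.5 and 30.9 in control cerebellum, so all were dim, and 1.55 is below the pseudocount. Whether Hnf4a mRNA was detected was not tested. Hnf4g read 3.67, 2.64 and 1.9, below the pseudocount. The arrays of both genes overlapped with those of the other regions.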
